A study of Mus musculus with 12 samples.

Results

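Matricellular proteins are secreted into the extracellular matrix, where they bind cell-surface receptors and growth factors, and they add little to the mechanical strength of the tissue. Fibronectin is a structural glycoprotein on which cells assemble much of the same matrix. The 9 genes described here were chosen by symbol, with earlier results of these data known. They are Postn (periostin), Fn1 (fibronectin), Thbs1, Thbs2 and Thbs4 (thrombospondins), Sparc (osteonectin), Tnc and Tnxb (tenascins) and Spp1 (osteopontin). Each symbol matched 1 of the 55401 rows of the gene count table, and 8 of the 9 were among the 16213 rows that passed a filter on low counts. Spp1 did not pass, so it has values here and a test only in a fit without that filter.

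RNA was sequenced in bulk from hearts of C57BL/6J mice, a common inbred strain, of wild-type genotype in every group. There were 12 libraries, with 3 each from females that were exercised, females that were sedentary, and the same 2 groups of males. Exercise was 6 weeks of treadmill running, on 5 days a week, for 45 min a day at a speed of 1 km/h, and the sedentary mice were of the same age and were kept in their cages. The labels give neither the age itself nor how the hearts were trimmed. Libraries are numbered 1 to 3 within a group only as names, and no label states in words that each is a separate animal, so the p-values here describe the spread among libraries.

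In the adult heart most of these proteins are made by fibroblasts and vascular cells, and their production is known to increase after injury or overload. Fibronectin and the matricellular proteins act through integrins and other surface receptors. Periostin and the tenascins shape collagen assembly and cell adhesion, while the thrombospondins bind proteases and growth factors, and thrombospondin 1 can activate latent TGF-beta. Osteopontin is made by activated macrophages and by injured muscle. Growth of the heart with training is known to come without the scarring seen after overload.

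The sequence upstream of 3 genes is shown because Postn, Thbs4 and Tnc were the members with exercised libraries wholly below sedentary ones in females. Each is the 250 bases before the RefSeq start in GRCm38.p6, on the coding strand and 5' to 3'. They are Postn at chr3:54360857-54361106 on the plus strand, Thbs4 at chr13:92794819-92795068 on the minus strand, and Tnc at chr4:64047016-64047265 on the minus strand. Capitals mark matches on either strand to any of 4 motifs. The TATA box was searched as TATAAA and the GC box as GGGCGG. The AP-1 site was searched as TGANTCA and the TEAD site as GGAATG.
Postn: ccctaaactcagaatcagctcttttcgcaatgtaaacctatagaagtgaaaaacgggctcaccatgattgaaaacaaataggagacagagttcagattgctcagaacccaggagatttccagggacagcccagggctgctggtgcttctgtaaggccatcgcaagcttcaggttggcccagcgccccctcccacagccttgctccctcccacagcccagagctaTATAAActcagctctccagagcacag
Thbs4: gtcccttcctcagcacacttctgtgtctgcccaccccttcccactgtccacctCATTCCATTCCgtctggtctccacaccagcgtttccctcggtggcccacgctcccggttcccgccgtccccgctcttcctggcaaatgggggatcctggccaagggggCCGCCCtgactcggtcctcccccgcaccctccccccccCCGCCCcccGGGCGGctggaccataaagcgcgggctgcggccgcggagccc
Tnc: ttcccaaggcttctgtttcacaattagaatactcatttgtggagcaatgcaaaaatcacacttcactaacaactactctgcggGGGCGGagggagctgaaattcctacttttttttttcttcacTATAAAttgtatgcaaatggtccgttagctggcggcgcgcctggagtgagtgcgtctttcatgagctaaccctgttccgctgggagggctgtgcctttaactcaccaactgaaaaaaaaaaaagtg
Postn had 1 TATA box, whose first base lay 26 bases before the start, and none of the other motifs. Thbs4 had 3 GC boxes and 2 TEAD motifs that share 1 base, and no TATA box. Tnc had 1 GC box and 1 TATA box, which lay 126 bases before the start. Among all 32851 RefSeq windows of this length, 12.4% held the TATA box letters, 32.7% the GC box, 6.75% the AP-1 and 12.6% the TEAD letters, and a match is a description of these letters only. RefSeq lists a further start for Postn and for Tnc, and the start nearest to that of the count table's gene model was taken.

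Total read counts ran from 22204349 to 32566240 per library. Rows of the mitochondrial genome held 27.3% of the counts in female sedentary 2 and none in the other 11 libraries, and the filter removed them. Atrial transcripts were high in 3 female libraries, chosen by Myl7 and Sln. Myl7, the atrial myosin light chain, was highest in female exercised 2, at 107 CPM (counts scaled to a library of 1000000). It was at 65.6 CPM in female sedentary 1 and 23.0 CPM in female sedentary 2, and it was between 0.415 and 2.33 CPM in the other 9. Sln, the atrial sarcolipin, was at 43.6, 25.4 and 7.90 CPM in these 3 and at most 1.04 CPM elsewhere. Over all 7 atrial markers the sums were 441, 458 and 306 CPM in these 3, but female sedentary 3 was close behind at 286 CPM, and the other 8 libraries held 73.7 to 170 CPM. Female sedentary 3 is the sedentary female library that is kept wherever the 3 are left out. The haemoglobin transcript Hbb-bs was also high in those sedentary female libraries, at 968 CPM in the first and 452 CPM in the other. Ventricular muscle markers were abundant in every library, with 10 markers summing to between 68237 and 79752 CPM. In bulk tissue, fewer cells of a type and less RNA per cell cannot be told apart.

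The members spanned a wide range of abundance. Per kilobase of exon, Sparc, which binds collagen and calcium, was the most abundant at 86.0 ± 7.84 CPM/kb (SD over 12 libraries), above 97.0% of all tested genes. Thbs1 followed at 36.8 ± 13.5 CPM/kb and Tnxb at 8.77 ± 1.23 CPM/kb. Next came Thbs2 at 4.56 ± 0.64, Postn at 4.04 ± 1.09 and Fn1 at 3.60 ± 0.685 CPM/kb. Thbs4 was at 1.2 ± 0.413, Spp1 at 0.221 ± 0.201 and Tnc at 0.144 ± 0.069 CPM/kb, and Tnc exceeded only 5.00% of the tested genes. The lowest library of Sparc lay above the highest of Thbs1, and the same held for Thbs1 over Tnxb, Tnxb over Thbs2, and Fn1 over Thbs4. Thbs2, Postn and Fn1 overlapped in level, as did Thbs4 with Spp1 and Spp1 with Tnc.

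**Figure D1:**
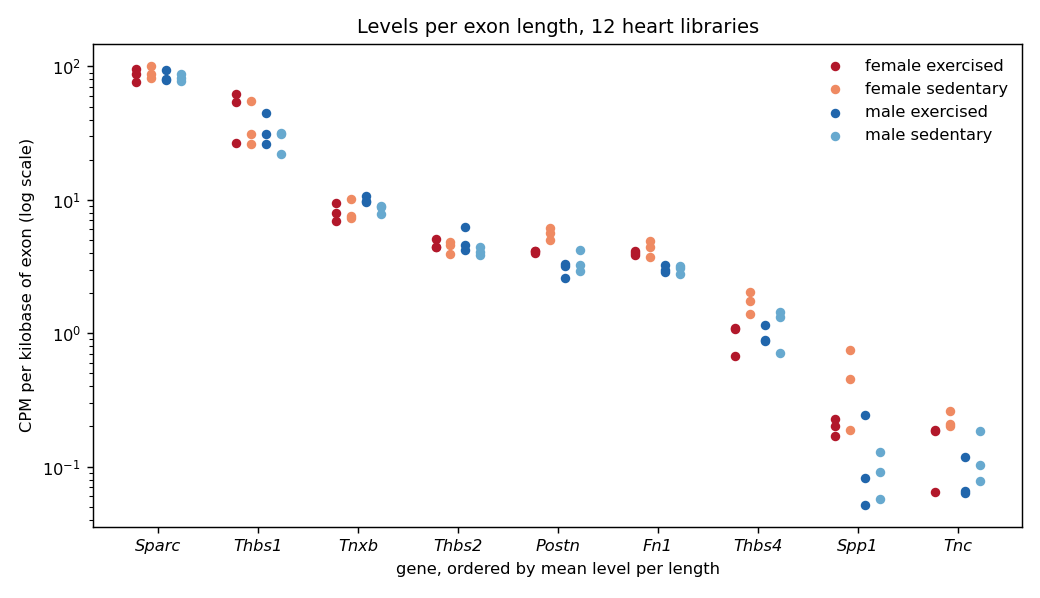
Level of each gene in CPM per kilobase of merged exons, on a log axis, with 1 point per library coloured by group. Sparc and Thbs1 sit above all other members in every library, and Spp1 and Tnc lie at the bottom of the range.

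The genes also differed in how much libraries of 1 group varied. The standard deviation of log2 CPM within groups was 0.14 for Sparc and 0.13 for Fn1, against a median of 0.18 over all tested genes. It was 0.50 for Thbs1 and 0.56 for Tnc, larger than in 88.9% and 91.9% of the tested genes. The highest library of Sparc was 1.32-fold above its lowest, and that of Thbs1 was 2.80-fold above.

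**Figure D2:**
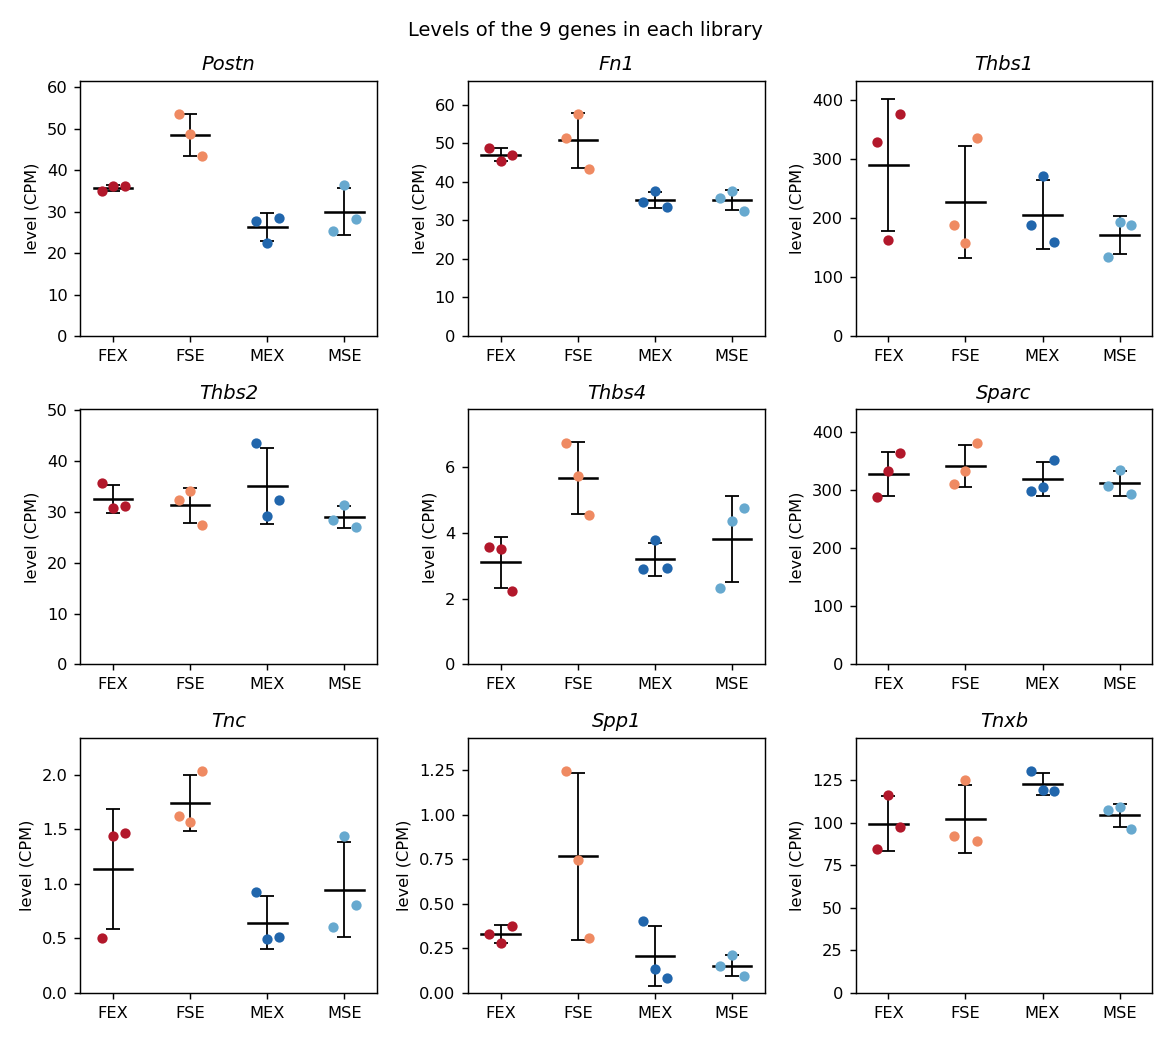
Level in CPM of each gene in exercised females (FEX), sedentary females (FSE), exercised males (MEX) and sedentary males (MSE), with 1 point per library, a bar at the mean and whiskers of 1 SD (n = 3). Postn stands at 43.4 to 53.5 CPM in sedentary females, above every other library, and Fn1 is higher in all female than in all male libraries.

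Exercise changed no member past the test in either sex. In females, Postn, Thbs4 and Tnc lay lower in all 3 exercised than in all 3 sedentary hearts, and Fn1, Sparc, Thbs2 and Tnxb had log2 fold changes between -0.11 and 0.06. In males the same 3 genes also had negative estimates, but their libraries overlapped. The tests were edgeR's quasi-likelihood tests in 1 fit to all 12 libraries, adjusted over 16213 genes with Benjamini-Hochberg at 0.05. Exercise passed for 0 of the 8 tested members in females, where 0 of all genes passed (0%), and for 0 of the 8 in males (0% of all genes). At an unadjusted p under 0.05 there were 2 members in females, against 3.93% of all genes, and 0 in males, against 7.84%. DESeq2, where it gave an adjusted p, and limma's voom called 0 members in both sexes. Over all genes DESeq2 called 1 of 33215 in females and 24 of 5869 in males, and voom called 0 of 16213 in each sex. Without the filter on low counts, which leaves 33281 genes in the fit, edgeR called 3 members in females, Postn, Thbs1 and Thbs4, and 0 in males, and calls over all genes were 357 in females and 327 in males at that setting. The standard error of Thbs1 was then 0.10, against 0.39 with the filter.

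Periostin (gene on chr3:54361109-54391037 of GRCm38, the build of all positions here, with 22 merged exons), the matrix protein that marks activated fibroblasts, had the smallest p of the members for exercise in females. In exercised females its level was 35.0, 36.1 and 36.2 CPM, against 53.5, 48.7 and 43.4 CPM in sedentary females. The exercised libraries lay close together, and all below the sedentary ones. The log2 fold change was -0.44 ± 0.12 (SE; 95% interval -0.71 to -0.18), with an unadjusted p of 0.0033 and an edgeR adjusted p of 1. In males Postn was at 27.7, 22.5 and 28.6 CPM in exercised hearts, against 25.3, 36.3 and 28.3 CPM in sedentary hearts, which overlap. The male estimate was -0.19 ± 0.13 (95% interval -0.46 to 0.08), and without male sedentary 2 it was -0.03.

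Fibronectin (chr1:71585520-71653200, minus strand) stood, in exercised females, at 48.7, 45.4 and 47.0 CPM, against 51.5, 57.5 and 43.2 CPM in sedentary females. In males it was at 34.8, 37.7 and 33.6 CPM in exercised hearts and at 35.7, 37.6 and 32.5 CPM in sedentary hearts. Exercised and sedentary libraries overlapped in both sexes, with log2 fold changes of -0.11 ± 0.09 in females and 0.00 ± 0.10 in males (SE). The intervals bound the exercise effect on Fn1 between -0.31 and 0.09 in females and between -0.20 and 0.21 in males.

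Among the thrombospondins, Thbs4 differed most between exercised and sedentary females. Thbs4 (chr13:92751590-92794818, minus strand) is a pentameric thrombospondin whose production in heart is known to increase with pressure load. It was, in exercised females, at 3.58, 3.52 and 2.22 CPM, against 6.74, 5.74 and 4.55 CPM in sedentary females. Every exercised female library was below every sedentary one, and the log2 fold change was -0.87 ± 0.26 (SE; 95% interval -1.43 to -0.31; unadjusted p of 0.00477, edgeR adjusted p of 1). Male hearts held 2.89, 3.78 and 2.94 CPM when exercised and 2.34, 4.36 and 4.77 CPM when sedentary, with overlap and a log2 fold change of -0.25 ± 0.27. That male estimate was -0.51 without male sedentary 1 and -0.06 without male sedentary 3. Its counts were 59 to 179 per library, so these levels are less precise than those of the abundant members.

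Thbs1 (chr2:118111876-118127133), an inhibitor of angiogenesis that is also stored in platelets, varied more between libraries of 1 group than between groups. It was, in exercised females, at 329, 163 and 376 CPM, against 188, 158 and 336 CPM in sedentary females. The exercised males had 188, 271 and 159 CPM, against 134, 193 and 188 CPM in sedentary males. Both pairs of groups overlapped, and the log2 fold changes of 0.35 ± 0.39 in females and 0.26 ± 0.39 in males (SE) were smaller than their errors. With each library left out they ranged from 0.11 (without female exercised 3) to 0.74 (without female sedentary 3) in females and from 0.02 (without male exercised 2) to 0.42 (without male exercised 3) in males. The 9 platelet markers summed to 15.6 and 12.1 CPM in female sedentary 1 and 2, where Thbs1 was at 188 and 158 CPM, and to between 3.62 and 5.24 CPM in the other 10 libraries. Of these 9 markers, 4 passed the filter, and Gp1bb had no count in any library. The part of platelets in the Thbs1 level was not tested.

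Thbs2 (chr17:14665500-14694235, minus strand), a trimeric thrombospondin that acts in collagen fibril assembly, was, in exercised females, at 35.6, 30.8 and 31.1 CPM, against 32.2, 34.1 and 27.4 CPM in sedentary females. The exercised males had 43.5, 29.2 and 32.3 CPM, against 28.3, 31.3 and 27.0 CPM in sedentary males. Only male exercised 1 stood out, and the estimates were 0.06 ± 0.13 in females and 0.28 ± 0.13 in males (edgeR adjusted p of 0.631 in males). Without male exercised 1 the male estimate was 0.09.

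Tnc (chr4:63959785-64047015, minus strand), tenascin C, which adult tissue makes chiefly during repair, was, in exercised females, at 0.500, 1.44 and 1.47 CPM, against 1.62, 1.57 and 2.03 CPM in sedentary females. The female groups did not overlap, but the estimate of -0.61 ± 0.40 (SE) rested on 12 to 46 counts per library and was -0.26 without female exercised 1. In males Tnc was at 0.924, 0.495 and 0.511 CPM in exercised hearts, against 0.604, 1.44 and 0.803 CPM in sedentary hearts, which overlap (-0.54 ± 0.45). The male estimate was -0.11 without male sedentary 2 and -0.90 without male exercised 1.

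Tnxb (chr17:34670535-34719815), tenascin X, which spaces and stabilises collagen fibrils, was, in exercised females, at 84.5, 116 and 97.2 CPM, against 92.4, 125 and 89.2 CPM in sedentary females. The exercised males had 130.2, 119 and 119 CPM, against 107, 109 and 96.4 CPM in sedentary males. The male groups did not overlap, and the log2 fold change was 0.23 ± 0.13 in males (SE; edgeR adjusted p of 0.676) and -0.04 ± 0.13 in females. The related pseudogene Tnxa was counted at 1.77 to 3.60 CPM, and reads that both could yield make Tnxb somewhat uncertain.

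Sparc (chr11:55394500-55423183, minus strand) was the steadiest of the abundant members. It was, in exercised females, at 289, 334 and 364 CPM, against 310.5, 334 and 382 CPM in sedentary females, and at 299, 306 and 353 CPM in exercised males, against 308, 335 and 293 CPM in sedentary males. All 4 groups overlapped. The log2 fold change for exercise was -0.06 ± 0.10 in females and 0.03 ± 0.10 in males (SE), with 95% intervals from -0.27 to 0.16 and from -0.18 to 0.25.

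Spp1 (chr5:104435118-104441050) was close to the limit of detection. Its counts were 8, 7 and 10 in exercised females, against 33, 19 and 7 in sedentary females. The exercised males had 10, 3 and 2 counts, against 4, 5 and 2 in sedentary males. Summed over each group, this is 0.331 CPM in exercised females (exact 95% Poisson interval 0.214 to 0.488) and 0.791 CPM in sedentary females (0.602 to 1.02), with 0.213 CPM (0.119 to 0.351) in exercised and 0.154 CPM (0.077 to 0.276) in sedentary males. These intervals cover counting error only. The 33 and 19 counts came from the sedentary female libraries that held haemoglobin and atrial transcripts, and the part of these in the Spp1 level was not tested. Of the exon length of Spp1, 18.8% is shared with Gm42793 on the same strand, which adds to its uncertainty. In the edgeR fit without the filter on low counts, Spp1 passed for sex in sedentary hearts, at 2.29 ± 0.60 (SE; adjusted p of 0.00631). At that setting 1317 of 33281 genes passed for this comparison. DESeq2 gave Spp1 an estimate of 2.32 ± 0.76 (SE) there and no adjusted p. For exercise in females Spp1 did not pass in the same edgeR fit, at -1.21 ± 0.54 (adjusted p of 0.744).

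**Figure D3:**
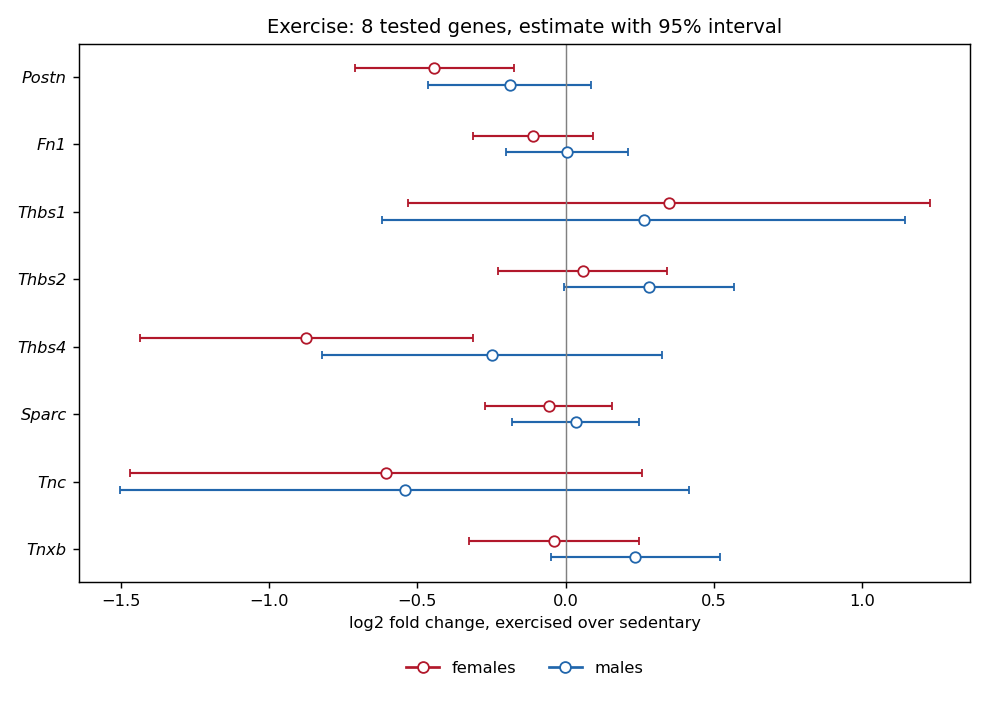
Log2 fold change of exercised over sedentary hearts for the 8 tested genes, in females and in males, with 95% intervals from edgeR. Postn and Thbs4 in females have intervals below 0, and no gene passed after adjustment over all genes, so every symbol is open.

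Groups that did not overlap were read against the share of all genes. In females 3 of the 8 members lay lower in every exercised library, where 4.37% of all tested genes did. In males 1 of 8 members, Tnxb, lay wholly higher, against 6.17% of all genes. The median log2 fold change of the 8 members was -0.08 in females and 0.02 in males, with 0.00 over all genes in both. Averaged over both sexes, 0 of the 8 members passed (0% of all genes), and 2 had an unadjusted p under 0.05, against 6.28% of all genes. The estimates were led by Postn at -0.32 ± 0.09, Thbs4 at -0.56 ± 0.19 and Tnc at -0.57 ± 0.30 (SE), and the edgeR adjusted p was 0.782 for each of the 3.

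The exercise effects of females and males were compared directly by the difference of their log2 fold changes, female minus male. None of the 8 members passed (0% of all genes; edgeR quasi-likelihood, and 0 at an unadjusted p under 0.05, against 4.74% of all genes). The difference was -0.25 ± 0.18 for Postn, -0.63 ± 0.37 for Thbs4 and -0.27 ± 0.19 for Tnxb (SE). The 95% interval for Postn ran from -0.64 to 0.13, and that for Thbs4 from -1.43 to 0.17. With each library left out the difference ranged from -0.42 (without male sedentary 2) to -0.14 (without male sedentary 1) for Postn, from -0.81 (without male sedentary 3) to -0.36 (without male sedentary 1) for Thbs4, and from -0.40 (without female exercised 2) to -0.10 (without female sedentary 2) for Tnxb. Without the 3 libraries with atrial transcripts it was -0.10 for Postn, -0.41 for Thbs4 and -0.21 for Tnxb. In females alone, the exercise estimate without the 3 libraries with atrial transcripts, which leaves 1 sedentary library, was -0.29 ± 0.19 for Postn, -0.65 ± 0.40 for Thbs4 and -1.03 ± 0.62 for Tnc (SE). It was 0.15 ± 0.13 for Fn1, whose sign thereby turned. A sex difference in the response of these genes was not detectable with 3 libraries a group.

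The sexes differed in the level of 2 members. In sedentary hearts, Postn and Fn1 were higher in females than in males, 1.62-fold and 1.44-fold. These were 2 of the 8 tested members, where 358 of 16213 genes (2.21%) passed in either direction and 0.851% passed as higher in females. At an unadjusted p under 0.05 there were 3 members, Postn, Fn1 and Thbs4, against 18.4% of all genes. Postn, Fn1 and Tnc lay higher in every sedentary female library, as did 12.2% of all genes. In exercised hearts Postn and Fn1 lay wholly higher, against 6.79% of all genes, and Tnxb wholly lower, against 7.54%. In exercised hearts, 0 of the 8 members passed, where 0.16% of all genes did, and 3 had an unadjusted p under 0.05, against 9.84% of all genes. DESeq2 called 1 member in exercised hearts, Fn1, and 167 of 14547 genes in all. For the same comparison voom called 0 members and 22 of 16213 genes in all. Without the filter on low counts edgeR called 4 members in each condition: Postn, Fn1 and Thbs1 in both, with Spp1 in sedentary and Tnxb in exercised hearts. At that setting 1317 of 33281 genes passed in sedentary and 531 in exercised hearts.

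Postn was at 53.5, 48.7 and 43.4 CPM in sedentary females, against 25.3, 36.3 and 28.3 CPM in sedentary males, without overlap. The log2 fold change was 0.70 ± 0.13 (SE; 95% interval 0.43 to 0.97), with an edgeR adjusted p of 0.0143. In exercised hearts the 35.0, 36.1 and 36.2 CPM of females lay above the 27.7, 22.5 and 28.6 CPM of males, and the estimate was 0.44 ± 0.13 (edgeR adjusted p of 0.243). The difference between these 2 sex effects is the same quantity as the difference of exercise effects above, which did not pass for Postn.

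Fn1 was at 51.5, 57.5 and 43.2 CPM in sedentary females, against 35.7, 37.6 and 32.5 CPM in sedentary males, a log2 fold change of 0.53 ± 0.10 (SE; 95% interval 0.32 to 0.73; edgeR adjusted p of 0.0137). In exercised hearts it was 0.41 ± 0.10, with an edgeR adjusted p of 0.146. All 6 female libraries lay above all 6 male libraries, as they did for 232 genes (1.43%) of all tested. Fn1 overlaps an antisense gene, Apol7d, over 2.5% of its exon length, and whether the counting used strand is not given in the sources used here.

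Both calls were lost without certain single libraries, and calls over all genes also fell there. Of all genes, 358 passed with every library, 106 without female sedentary 1, 97 without female sedentary 2, 135 without male sedentary 1 and 68 without male sedentary 3. For Postn the edgeR adjusted p was 0.0601 without female sedentary 1, 0.0571 without female sedentary 2, 0.053 without male sedentary 1 and 0.0818 without male sedentary 3, with estimates between 0.58 and 0.69. For Fn1 it was 0.0544 without female sedentary 1, 0.0611 without female sedentary 2 and 0.0762 without male sedentary 3, with estimates between 0.43 and 0.52. Without the 3 libraries with atrial transcripts, which leaves 1 sedentary female library that is assumed to vary like the rest, the estimates were 0.53 ± 0.18 for Postn and 0.29 ± 0.12 for Fn1, and neither passed (edgeR adjusted p of 0.315 and 0.394), where 14 of 17018 genes did.

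The other members gave no call between the sexes. In sedentary hearts Tnc was 0.88 ± 0.41 higher in females on the log2 scale without overlap between groups (edgeR adjusted p of 0.275), and Thbs4 was at 0.58 ± 0.26 with overlap (0.252). In exercised hearts Tnxb was lower in every female library than in every male library, at -0.30 ± 0.13 (0.469), and Thbs4 was at -0.05 ± 0.27. Thbs1, Thbs2 and Sparc overlapped between the sexes in both conditions. Without the 3 libraries with atrial transcripts, which leaves 1 sedentary female library, the Thbs1 estimate was 0.97 in sedentary and 0.78 in exercised hearts. With every library it was 0.40 and 0.49. Thbs1 was at 163, 188 and 158 CPM in those 3 libraries, against 329 to 376 CPM in the other female libraries. The cause was not tested. The median log2 fold change of the 8 members was 0.47 in sedentary and 0.23 in exercised hearts, with 0.01 and 0.00 over all genes.

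**Figure D4:**
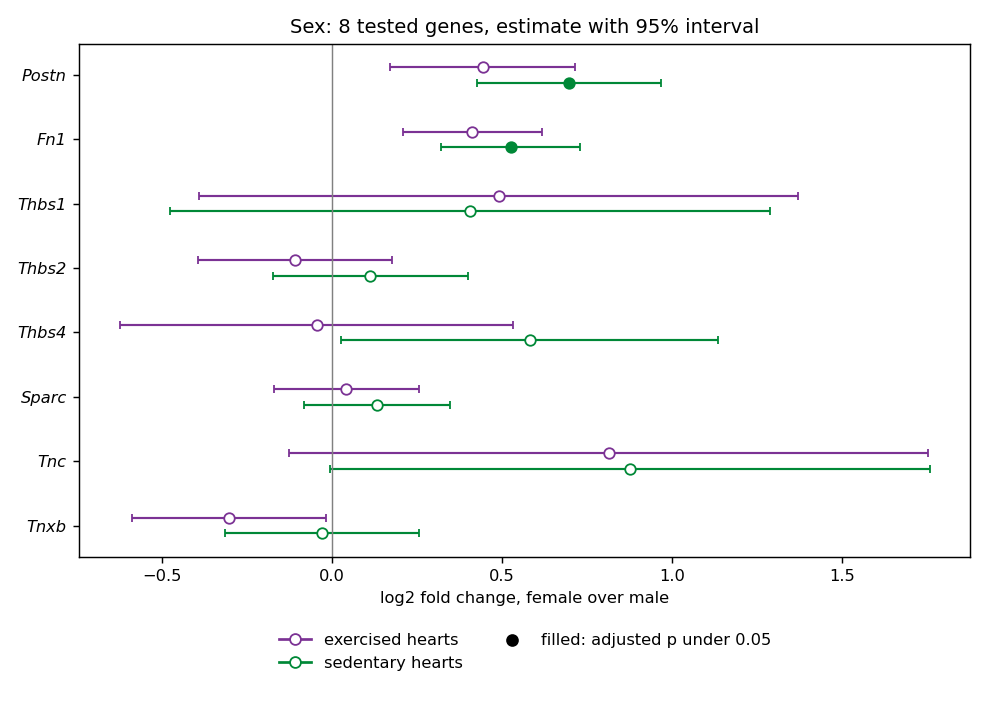
Log2 fold change of female over male hearts for the 8 tested genes, in exercised and in sedentary hearts, with 95% intervals from edgeR. Filled symbols mark Postn and Fn1 in sedentary hearts, the 2 values that passed, and Tnxb lies below 0 in exercised hearts.

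Fibroblast markers also ran higher in females. The 14 markers of the fibroblast list, none of them a member, summed to 2926 to 3309 CPM in sedentary females, against 2511 to 2652 CPM in sedentary males. In exercised hearts they summed to 2982 to 3346 CPM in females, against 2271 to 2791 CPM in males. Of the 14, 10 lay above 0 in sedentary hearts and 13 in exercised hearts, with medians of 0.32 and 0.30, and 1 passed in each. The activated fibroblast list, with 9 of 10 markers tested, lay above 0 for 7 in sedentary and 8 in exercised hearts, with 2 and 1 past the test. Of all genes, 2.21% passed in sedentary and 0.16% in exercised hearts. The sums of this list overlapped in sedentary hearts, at 147 to 217 CPM in females and 125 to 155 CPM in males. In exercised hearts they were 183 to 246 CPM in females, against 95.1 to 114 CPM in males. No marker of either list was at 0 in any group. Further lists lay above 0 between the sexes. Of adipocyte markers, 5 of 5 tested did in sedentary and in exercised hearts, with medians of 2.82 and 4.53. Their sums were 24.5 to 59.0 CPM in sedentary females, against 29.2 to 37.7 CPM in sedentary males. In exercised hearts they were 38.1 to 140 CPM in females, against 30.6 to 48.1 CPM in males. Of mesothelial and epicardial markers, 7 of 8 did in sedentary and 8 of 8 in exercised hearts, with medians of 0.34 and 0.73. Their sums were 20.5, 21.0 and 66.6 CPM in female sedentary 1 to 3, against 18.4 to 35.1 CPM in sedentary males. The high sum was that of female sedentary 3, the library kept wherever the 3 with atrial transcripts are left out. Atrial and erythroid markers lay above 0 for 6 of 6 each in both conditions. None of these passed, and their part in the sex differences was not tested. Valve and cartilage markers, 9 of 12 of them tested, summed to 40.7 to 86.2 CPM in sedentary females. In sedentary males they summed to 28.1 to 37.4 CPM, and Hapln1 was at 0. Between the sexes, 8 of the 9 lay above 0 in each condition, with medians of 1.09 in sedentary and 0.84 in exercised hearts. None passed in sedentary hearts, and 1 passed in exercised hearts, where 0.16% of all genes did. For exercise in females, 8 of these 9 lay below 0, with sums of 34 to 55.1 CPM in exercised females and 40.7 to 86.2 CPM in sedentary females, and 7 of 9 activated fibroblast markers lay below 0. The sums of the activated fibroblast list ran the other way, at 183 to 246 CPM in exercised females, against 147 to 217 CPM in sedentary females.

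Set against the fibroblast markers of the same library, Postn was at 14.8 to 16.4 CPM per 1000 marker CPM in sedentary females, against 10.1 to 14 in sedentary males, without overlap. In exercised hearts this ratio was 10.5 to 12.1 in females, against 9.91 to 10.3 in males. Within females, the exercised range of 10.5 to 12.1 lay below the sedentary range of 14.8 to 16.4. The ratio of Fn1 was 14.8 to 19.4 in sedentary females, against 12.2 to 14.4 in sedentary males, and it overlapped between the sexes in exercised hearts, at 14.5 to 15.2 in females and 12.1 to 16.6 in males. These ratios were added after the levels were known and carry no test. The part of valve tissue in the Postn, Tnc and Thbs4 levels was not tested.

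**Figure D5:**
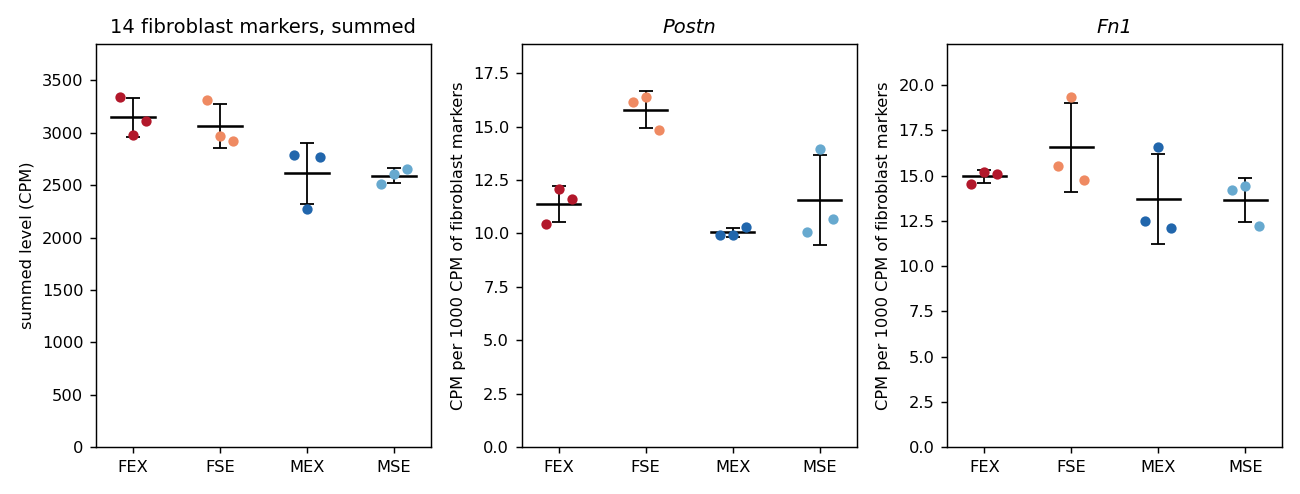
Summed level of 14 fibroblast markers in CPM (left), and Postn (middle) and Fn1 (right) in CPM per 1000 CPM of those markers, by group (FEX and FSE, exercised and sedentary females; MEX and MSE, exercised and sedentary males), with 1 point per library, the mean and 1 SD (n = 3). The Postn ratio of 14.8 to 16.4 in sedentary females lies above the other 9 libraries.

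Macrophages make both Fn1 and Spp1. All 16 macrophage markers lay above 0 for exercise in females, with a median of 0.25 and none past the test. They summed to 322 to 349 CPM in exercised females, against 246 to 324 CPM in sedentary females. For exercise in males, 12 of the 16 lay above 0, with a median of 0.22 and none past the test. The part of macrophages in the Fn1 and Spp1 levels was not tested. In the sedentary sexes the sums overlapped, at 246 to 324 CPM in females and 188 to 292 CPM in males. In exercised hearts the sums did not overlap, at 322 to 349 CPM in females and 232 to 311 CPM in males. Between the sexes, 14 of the 16 markers lay above 0 in sedentary and 15 in exercised hearts, with none past the test. The medians were 0.24 and 0.28.

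Partner genes of the family were taken from 4 lists. For exercise, none of the tested partners passed in either sex (0% of all genes). Among receptors, all 28 listed were tested, and 19 lay below 0 in females and 15 in males. The median log2 fold changes of this list were -0.08 and -0.01, with 0.00 over all genes in both sexes. Sdc1, a syndecan that binds tenascin C and thrombospondin 1, was at -0.37 ± 0.13 (SE) for exercise in females. Itgb3, the integrin chain that binds periostin and osteopontin, is also on the platelet list and was at -0.52 ± 0.21. Neither passed the test. All 4 tested platelet markers, Itgb3 among them, lay below 0 for exercise in females. The part of platelets in the Itgb3 level was not tested. Among 23 genes of the TGF-beta pathway, 17 lay below 0 in females and 8 in males, with medians of -0.06 and 0.06. Ltbp2, which lies in microfibrils and is also on the activated fibroblast list, was at -0.92 ± 0.38 in females, and Bambi, a decoy receptor, at 0.54 ± 0.17 in males (unadjusted p of 0.033 and 0.0091).

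The other matricellular genes, of which 19 of 26 were tested, were divided by exercise as well, with 10 below 0 in females and 6 in males. Their medians were -0.03 and 0.07. Comp, a cartilage thrombospondin that is also on the valve and cartilage list, had an estimate of -1.01 ± 0.71 in females (SE), with an unadjusted p of 0.189. Ccn1, an angiogenic matricellular protein, was at 976 ± 293 CPM in exercised males, against 715 ± 73.0 CPM in sedentary males, with an estimate of 0.45 ± 0.18 (SE) that did not pass. Among 20 processing enzymes, Adamts1, a protease that cleaves thrombospondins and proteoglycans, was at 0.25 ± 0.21 in females and 0.47 ± 0.21 in males.

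Between sedentary females and males, 2 of 19 other matricellular genes, 1 of 28 receptors, 2 of 23 TGF-beta pathway genes and 1 of 20 processing enzymes passed, where 2.21% of all genes did. Smoc2, a relative of Sparc, was higher in females at 143 ± 15.1 CPM, against 87.0 ± 1.63 CPM in males (0.72 ± 0.13, edgeR adjusted p of 0.0162), and Ecm1 was higher at 0.46 ± 0.08. Ltbp4, which tethers latent TGF-beta in the matrix, was higher at 0.51 ± 0.12. Smad7, an inhibitor of the TGF-beta pathway, was higher at 0.52 ± 0.12, and Adamts2, a procollagen peptidase, at 0.44 ± 0.11. Cacna2d1, a calcium channel subunit that is also a thrombospondin receptor, was lower in females at -0.44 ± 0.08. Of the 19 other matricellular genes, 16 lay above 0, with a median of 0.38, and of 23 TGF-beta pathway genes 19 did, with a median of 0.24, where the median of all genes was 0.01. In exercised hearts none of the partners passed, where 0.16% of all genes did, and Smoc2 was closest at 0.71 ± 0.13 (edgeR adjusted p of 0.065).

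For each tested member the genes of most similar pattern were found by Pearson's r of log2 CPM over the 12 libraries. The points share 4 groups and their sex, so r describes these libraries only. Postn was nearest to Cmklr1, Col8a1 and Adcy7, each with r between 0.95 and 0.96, and Col8a1, a short-chain collagen, was also on the activated fibroblast list. Fn1 was nearest to Kdm5c at 0.94, Lrrn2 at 0.93 and Usp11 at 0.93. Thbs1 was nearest to Wsb1 at 0.95 and to Adamts4 at 0.93, a protease of the processing list. Thbs2 was nearest to Nop9, at 0.95, Sparc to Aurkb, at 0.93, Tnc to Sema3d, at 0.92, Tnxb to Mecom, at 0.91, and Thbs4 to Foxp1, at 0.84. Between members, r was highest for Postn with Fn1, at 0.81, and with Tnc, at 0.79. After the mean of each group was removed, these were 0.21 and 0.47. Thbs1 and Tnxb were the pair with the most negative r, at -0.58 over the libraries and -0.67 within groups.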

How the data were processed

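The 9 genes and the gene lists were chosen with earlier results of these data known. The deposited table holds raw read counts per gene, without normalization by the authors. The submitters' processing notes name Trimmomatic 0.36 and STAR 2.5.2b, the GRCm38 build, and featureCounts with Subread 1.5.2; annotation release and strand setting were not given in the sources used here.

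Symbols were found for 55141 of 55401 rows. Coordinates (counted from 1) and merged exon lengths came from the GENCODE annotation of GRCm38, and upstream sequences from RefSeq for GRCm38.p6. In R 4.3.3, edgeR 4.0.16 kept 16213 genes (filterByExpr) and scaled libraries by the trimmed mean of M-values. A group-means model (8 residual degrees of freedom, robust estimates of spread) fitted to every library gave quasi-likelihood tests with Benjamini-Hochberg adjustment at 0.05. CPM values are counts over the scaled library size of the kept genes, times 1000000. Libraries of 1 group differed beyond sampling noise, at a chi-square per degree of freedom of 8.59 to 31.4 without mitochondrial rows. The fit was tested on simulated counts.

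The text names the 9 genes, partner genes from among the 4 of smallest p per list and comparison, and up to 3 tested genes nearest to each member. Alternatives were other scalings and filters, DESeq2 1.42.0, voom of limma 3.58.1 with sample weights, spread without robust estimation, fits of the compared groups alone, and fits with each library left out in turn. Removal of the 3 libraries with atrial transcripts, and levels per fibroblast marker, were added after the data were seen.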

Additional observations from a re-analysis of the deposited data

How the results depend on the processing

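No paired analysis was possible because the labels give the groups no common replicate numbers. Leaving out 1 library at a time gave between 0 and 2 members past the test for sex in sedentary hearts, where calls over all genes were 68 to 106 in the fits with 0 members and 358 with every library. Without the filter on low counts, 3 members passed for exercise in females and for the average exercise effect, and 4 for sex in sedentary and in exercised hearts. Calls over all 33281 genes were then 357, 399, 1317 and 531. DESeq2 called 1 for sex in exercised hearts, and 167 genes in all. Without the 3 libraries with atrial transcripts, chosen after results were known, 0 passed for sex in sedentary hearts, and 14 genes in all. The cause was not tested.

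Small estimates crossed 0. Without those 3 libraries, the log2 fold change for exercise in females was 0.15 for Fn1 and 0.03 for Tnxb. The difference of exercise effects was 0.14 for Fn1, -0.19 for Thbs1 and 0.01 for Thbs2, the average effect was 0.08 for Fn1, and the sex effect in sedentary hearts was -0.08 for Thbs2. For exercise in males Fn1 was -0.01 with upper quartile scaling and -0.03 with voom, and voom gave 0.03 for Thbs4 between the sexes in exercised hearts.

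With each library left out, exercise in females ranged from -0.03 to 0.12 for Thbs2, -0.14 to 0.03 for Sparc and -0.17 to 0.13 for Tnxb. Exercise in males ranged from -0.05 to 0.05 for Fn1 and -0.05 to 0.09 for Sparc. The difference of effects ranged from -0.15 to 0.48 for Thbs1 and -0.50 to 0.30 for Tnc, and the average effect from -0.05 to 0.03 for Sparc. Sex in sedentary hearts ranged from -0.20 to 0.06 for Tnxb. Sex in exercised hearts ranged from -0.22 to 0.08 for Thbs2, -0.16 to 0.15 for Thbs4 and -0.04 to 0.13 for Sparc. Of the other settings, 392 member values stayed on the same side of 0 and of the threshold, 12 passed it and 2 no longer did. Counts of 2 to 46 per library limit Spp1 and Tnc.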
